A study of Mus musculus with 5 samples.

Results

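The 52 genes described here are the translation initiation factors of the mouse annotation used for these libraries: every gene whose symbol starts with Eif and a number from 1 to 6, without the eIF2 kinases. They were taken by that rule from the 32285 genes counted. The rule includes Eif2c5, whose symbol follows an older naming of Argonaute genes and is no initiation factor. The study profiled OT-II cells, which are CD4 T cells whose transgenic receptor sees an ovalbumin (OVA) peptide on MHC class II. A negative selection kit isolated them from the spleen of a naive mouse. The groups were OT-II cells alone and untreated, and OT-II cells kept overnight with apCAFs, fibroblasts of the tumor stroma that present antigen. The apCAFs were sorted from pancreatic tumors of the mouse clone sKPC or rKPC, and these cultures received DMSO or OVA. Each of the 5 groups had 1 sample, all T cells were isolated as OT-II cells, and each tumor source was a clone. Libraries were made with the 10x Genomics 5′ kit, which marks every droplet with a barcode and every captured RNA with its own molecular identifier (UMI).

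The counts came in 2 matrices, called G and H here. The labels tie 2 samples to G and 3 to H, while the barcodes carried 3 library suffixes in G and 2 in H, and which suffix belongs to which sample is not stated in the labels or files. The libraries of G are therefore called Ga, Gb and Gc, those of H are called Ha and Hb, none is assigned to a group, and values below follow this order. No contrast of coculture, clone or peptide was computed. A difference between libraries has no replicate check, describes no group and can include cells of samples not analysed here.

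Initiation factors bring the ribosome and the initiator tRNA to the start codon of an mRNA. eIF2 carries the initiator tRNA, eIF3 holds the small ribosomal subunit together with eIF1 and eIF1A, and eIF4F binds the mRNA cap. The eIF4E-binding proteins hold the cap-binding protein back until mTOR signaling releases it. A resting naive T cell makes little protein, and stimulation of its receptor is known to raise translation. Irf4 and Nr4a1 are 2 genes that receptor signaling induces: Irf4 encodes a transcription factor and Nr4a1 the nuclear receptor Nur77.

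T cell barcodes were those with a UMI of Cd3d, Cd3e or Cd3g, at least 500 UMIs and at most 10% mitochondrial UMIs. They numbered 5236, 3081, 6419, 4200 and 3938 of 5943, 3549, 7136, 4630 and 4365 barcodes, with a median of 7928 to 8768 UMIs per library. Each was thinned at random to 3000 UMIs, which left out 232, 169, 330, 272 and 208 shallower barcodes. A thinned barcode with at least 1 UMI of Irf4 or Nr4a1 is called a responder barcode below, and all others are non-responder barcodes. Levels are in CPM, the UMIs of a gene in each 1000000 thinned UMIs of its class. They are ratios of sums over barcodes, and every 95% interval given covers counting error only. It does not cover differences between cells, cultures or animals, or between random draws of the thinning. Any pair of libraries shared 2 to 14 barcode sequences.

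Responder barcodes were common in only 2 of the libraries. They made up 18.7%, 0.962%, 16.7%, 0.636% and 0.402% of thinned T cell barcodes, or 937, 28, 1019, 25 and 15 barcodes. Before thinning the shares were 25.2%, 2.21%, 22.5%, 2.05% and 1.30%. In erythroid barcodes without a Cd3 UMI, which should lack both genes, 3 of 142 thinned barcodes (2.11%, exact Clopper-Pearson interval 0.438% to 6.05%) held a UMI when at least 20 globin UMIs were asked for. With at least 100 globin UMIs, a minimum chosen after the former value was seen, it was 1 of 139 (0.719%, 0.0182% to 3.94%). In both selections 4 barcodes held a UMI before thinning, from medians of 8887 and 8849 UMIs per barcode. Globin took a median of 96.8% of these barcodes' UMIs. These erythroid barcodes came from all 5 libraries together, so the background of each library alone is not given. The responder shares of Gb, Ha and Hb lie within or below these intervals and are not read as above background by this measure. Their few responder barcodes still held a UMI of the 6 receptor-induced genes named below in 32.1%, 36% and 33.3%. In their non-responder barcodes it was 3.29%, 4.13% and 2.96%. The results turn on Ga and Gc, which have many more responder barcodes.

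The responder classes of Ga and Gc differed from the other barcodes in more than the 2 genes that chose them. Another 6 receptor-induced genes (Nr4a2, Nr4a3, Egr1, Egr2, Egr3 and Il2ra) had a UMI in 79.3% of responder against 7.94% of non-responder barcodes in Ga, and in 74.9% against 8.48% in Gc. The median depth before thinning was 10553 against 8620 UMIs in Ga and 10214 against 8423 in Gc. Cd4 and Trdc UMIs were counted before thinning, so these shares were not taken at equal depth. A Cd4 UMI was present in 39.9% of responder against 65.9% of non-responder barcodes in Ga and in 43.3% against 65.8% in Gc. A UMI of Trdc, a gamma-delta receptor gene, was present in 10.0% against 23.3% and in 10.1% against 21.0%. The receptor of each barcode was not read, so T cells without the OT-II receptor may be among them. Of the other cell markers, the 4 globin genes were at 1529 CPM in non-responder and 53.0 CPM in responder barcodes of Ga, and at 901 and 461 CPM in Gc. The 5 B cell markers were at 163 and 67.6 CPM in Ga and at 154 and 153 CPM in Gc. The 5 myeloid markers were at 17.7 and 6.05 CPM in Ga and at 19.1 and 28.8 CPM in Gc, and the endothelial pair Pecam1 and Cdh5 at 737 and 247 CPM and at 831 and 321 CPM. Of that pair, 1 gene had no UMI in each class of Ga and in responder barcodes of Gc. The sum there is the level of 1 gene, and no endothelial cells are read from it. The 5 fibroblast markers summed to at most 3.20 CPM in either class of Ga and Gc, the 3 neutrophil markers to under 5.0 CPM and the 3 NK cell markers to at most 20.2 CPM. The 8 T cell markers stood apart in Gc, at 5760 CPM in non-responder barcodes against 9153 to 9886 CPM in the other libraries, and they were higher in responder barcodes, at 12824 against 9288 CPM in Ga and 7619 against 5760 CPM in Gc. The part of these differences in the results below was not tested, apart from ratios in restricted sets of barcodes. Those restricted by depth, Cd4 and Trdc are given beside the results. The summed ratio without the highest 6% of barcodes and other cells' markers is given at the end.

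Initiation factor RNA was higher in the responder barcodes of both libraries. Summed over the 52 genes, non-responder barcodes held 5622, 5412, 5489.9, 5548 and 5557 CPM, and responder barcodes held 10669, 5952, 10039.9, 7067 and 5956 CPM. The non-responder values lay close together in all 5 libraries, while the responder values of Ga and Gc stood far above them. The log2 ratio of responder to non-responder barcodes was 0.92 (0.90 to 0.94) in Ga and 0.87 (0.85 to 0.89) in Gc, that is 1.90-fold and 1.83-fold. In Gb, Ha and Hb, with 28, 25 and 15 responder barcodes, it was 0.14 (0.01 to 0.26), 0.35 (0.22 to 0.47) and 0.10 (-0.08 to 0.27). In barcodes with a Cd4 UMI and none of Trdc, both counted before thinning, the ratio was 0.72 in Ga and 0.67 in Gc. In barcodes of 6000 to 12000 UMIs before thinning it was 0.82 and 0.80.

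**Figure D1:**
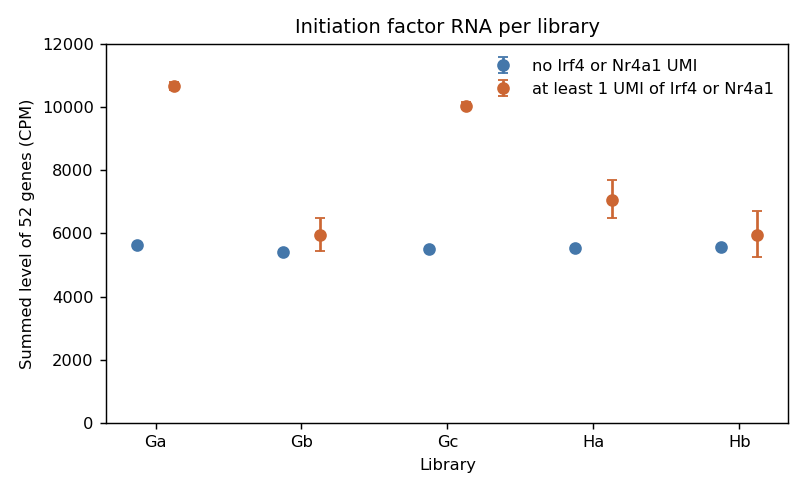
Summed level of the 52 initiation factor genes in CPM (vertical axis) for each of the 5 libraries (horizontal axis), in non-responder and responder barcodes thinned to 3000 UMIs; bars are exact 95% Poisson intervals for counting error. Non-responder barcodes sit between 5412 and 5622 CPM, and responder barcodes of Ga and Gc at 10669 and 10039.9 CPM.

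The shift was also visible in single barcodes. Of 3000 UMIs, the median non-responder barcode held 16 initiation factor UMIs in every library. The median responder barcode held 31 in Ga and 28 in Gc, against 16, 21 and 18 in Gb, Ha and Hb. In Ga 583 of 937 responder barcodes, or 62.2%, were above the 95th percentile of the non-responder barcodes (26 UMIs), and in Gc 594 of 1019, or 58.3% (25 UMIs). The classes overlapped: the 25th percentile of responder barcodes was 22 UMIs in Ga and 20 in Gc.

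**Figure D2:**
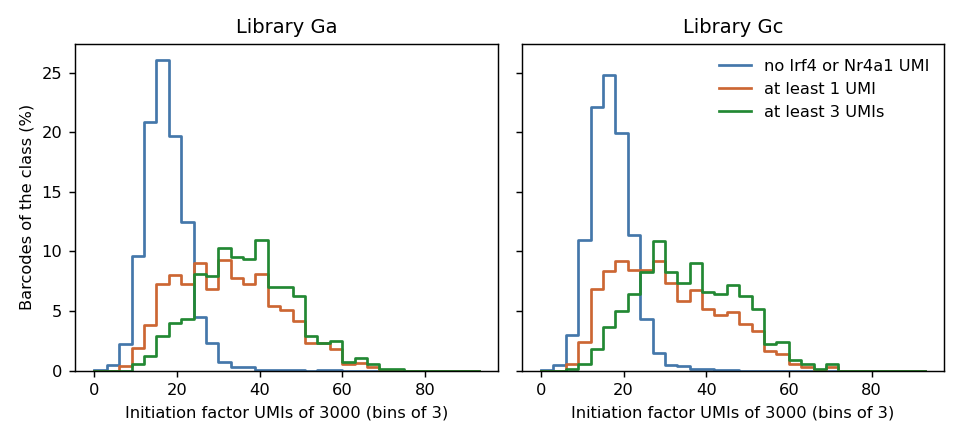
Share of barcodes (vertical axis, percent of the class) by the number of initiation factor UMIs among 3000 (horizontal axis, bins of 3) in libraries Ga and Gc. Lines show barcodes with no UMI, at least 1 UMI and at least 3 UMIs of Irf4 or Nr4a1, with medians of 16, 31 and 36 UMIs in Ga and 16, 28 and 34 in Gc.

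Single genes were read where a library held at least 200 UMIs of the gene over both classes, and a ratio of 1.5-fold was used as a fixed size, since 1 library gives no test. In Ga 25 of 46 such members, or 54.3%, were at least 1.5-fold higher in responder barcodes, beside 20.5% of all 7706 genes. In Gc they were 24 of 47, or 51.1%, beside 18.8% of 8131 genes. Lower by that fold were 3 members in each library, 6.52% and 6.38%, beside 22.7% and 20.2% of all genes. The median log2 ratio of the members was 0.61 in Ga and 0.63 in Gc, and that of all genes was -0.02 in both. Of the 46 members measured in both libraries, 23 were higher in both, beside 17.3% of the 7691 genes measured in both, 3 were lower in both, beside 17.3%, and 20 were neither. In Cd4 barcodes without Trdc, 18 of the 23 and 1 of the 3, Eif4e3, were still read and past the fold in both libraries. There Eif2s3x, Eif4a3, Eif4g2, Eif5b, Eif3f and Eif4ebp2 fell within the fold in at least 1 library, and Eif4ebp1 had too few UMIs in Ga. In barcodes of 6000 to 12000 UMIs it was 20 of the 23 and 2 of the 3, without Eif4a3, Eif4g1, Eif4g2 and Eif3f. For these restricted barcodes no share of all genes is given beside the members. The 6 others had too few UMIs: Eif4e1b and Eif2s3y had none, Eif2c5 had 2, Eif3j2 had 152 and Eif5a2 had 320 over the 5 libraries, and Eif2b1 fell short only in Ga.

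**Figure D3:**
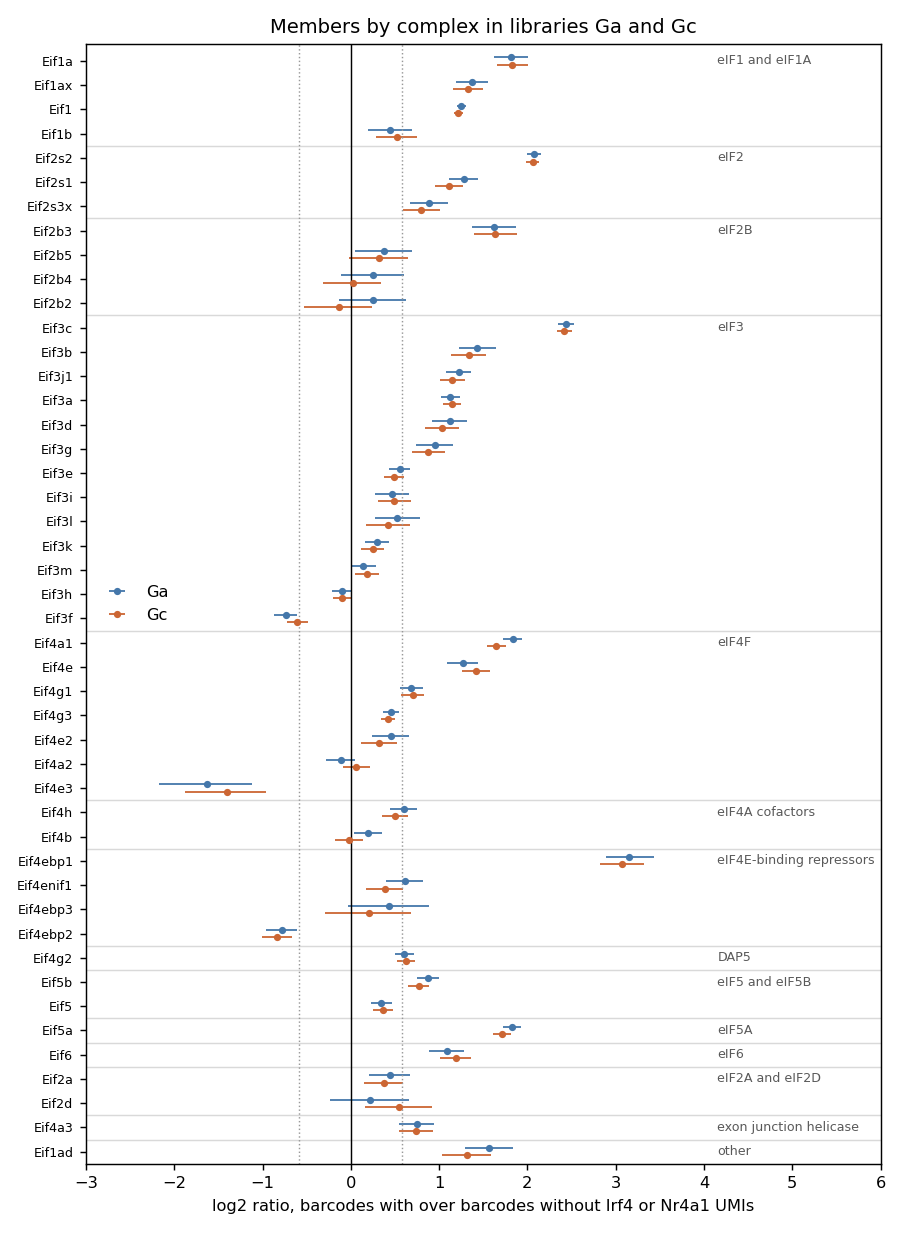
Log2 ratio of each member's level in responder over non-responder barcodes (horizontal axis) in libraries Ga and Gc, for the 46 members measured in both, grouped by complex (vertical axis); bars are exact 95% intervals for counting error, the solid line marks no difference and dotted lines mark 1.5-fold. Eif4ebp1 lies farthest to the right at 3.16 and 3.07, and Eif4e3 farthest to the left at -1.62 and -1.40.

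The factors that prepare the small subunit were among those with high ratios. Each complex had at most 13 measured genes, so the count of a single complex here and below is a description only. Beside these counts, 17.3% of all genes measured in both libraries were higher in both and 17.3% were lower in both. For eIF1 and eIF1A, which open the subunit for scanning and guard start codon choice, 3 of 4 genes were past the fold in both libraries. Eif1 was at 809.8, 786, 734, 794 and 805 CPM in non-responder barcodes and at 1928, 1167, 1709, 1120.0 and 867 CPM in responder barcodes, highest in Ga and Gc, with a log2 ratio of 1.25 (1.20 to 1.30) in Ga and 1.22 (1.17 to 1.27) in Gc. Eif1 held a large share of the members' UMIs, and the summed ratio without it, an alternative added after seeing the data, was 0.86 in Ga and 0.81 in Gc. Where 2 sets of levels follow each other below, non-responder barcodes come before responder barcodes. Eif1a and Eif1ax both encode eIF1A. Eif1a was at 41.9, 39.3, 42.1, 41.8 and 41.6 CPM without and 147, 59.5, 149, 120.0 and 44.4 CPM with Irf4 or Nr4a1 UMIs, a log2 ratio of 1.81 (1.62 to 2.004) in Ga and 1.83 (1.65 to 2.002) in Gc. For Eif1ax the levels were 56.1, 56.5, 56.3, 46.3 and 54.6 CPM and 146, 23.8, 141, 66.7 and 0 CPM, a log2 ratio of 1.37 (1.19 to 1.55) in Ga and 1.33 (1.16 to 1.495) in Gc. The responder levels of Gb, Ha and Hb rest on few UMIs here and below, as 1 UMI is 11.9, 13.3 and 22.2 CPM there and a count of 0 is read with an upper limit of 3 counts, or 35.7, 40.0 and 66.7 CPM. Eif1b, the remaining gene, had ratios of 0.44 in Ga and 0.52 in Gc. Eif1ad, a protein with an eIF1A-like domain, was at 23.4, 20.9, 21.8, 23.5 and 21.5 CPM and 69.4, 35.7, 54.0, 26.7 and 44.4 CPM, with log2 ratios of 1.57 in Ga and 1.31 in Gc.

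All 3 measured genes of eIF2, the GTPase that carries the initiator tRNA, were higher in responder barcodes of Ga and Gc, but unequally. Summed, the complex had a log2 ratio of 1.79 (1.72 to 1.86) in Ga and 1.75 (1.69 to 1.81) in Gc. Eif2s2, the beta subunit, was at 199, 174, 203, 152 and 169 CPM in non-responder and 839.9, 369, 846, 307 and 267 CPM in responder barcodes. Ga and Gc stood above the other libraries, and the log2 ratio was 2.08 (1.99 to 2.16) in Ga and 2.06 (1.98 to 2.13) in Gc. Eif2s1, the alpha subunit that the eIF2 kinases phosphorylate, was at 70.9, 74.0, 70.0, 65.8 and 70.8 CPM and 172, 47.6, 151, 107 and 133 CPM, a log2 ratio of 1.28 (1.11 to 1.44) in Ga and 1.11 (0.95 to 1.27) in Gc. Eif2s3x, the gamma subunit, had ratios of 0.89 in Ga and 0.80 in Gc. The ratio of the beta subunit was thus above those of the alpha and gamma subunits beyond counting error in both libraries. Eif2s3x has a near copy on the Y chromosome, Eif2s3y, with no UMI in any library.

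Among the genes of eIF2B, which reloads eIF2 with GTP, only Eif2b3 passed the fold in both libraries, of 4 measured in both. The count of 1 of 4 lies near the 17.3% of all genes. Eif2b3, the gamma subunit of the catalytic part, was at 26.5, 22.1, 23.5, 19.0 and 22.2 CPM and 81.5, 11.9, 73.3, 40.0 and 0 CPM in non-responder and responder barcodes, a log2 ratio of 1.62 (1.37 to 1.87) in Ga and 1.64 (1.39 to 1.88) in Gc. Its partner in the catalytic part, Eif2b5, had ratios of 0.37 in Ga and 0.32 in Gc. Eif2b4, a regulatory subunit, was at 26.0, 29.0, 31.0, 28.9 and 29.2 CPM and 30.9, 23.8, 31.4, 40.0 and 88.9 CPM, with ratios of 0.25 (-0.11 to 0.60) in Ga and 0.02 (-0.31 to 0.34) in Gc that include 0. Eif2b2 had ratios of 0.25 in Ga and -0.13 in Gc. Eif2b1 had a ratio of 0.72 (0.23 to 1.19) in Gc and too few UMIs in Ga.

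Subunits of eIF3, the large scaffold on the small ribosomal subunit, did not move together. Of 13 measured subunits 6 were higher in both libraries, 1 was lower and 6 were neither, beside 17.3% of all genes in each direction. Eif3c was at 154, 119.5, 137, 142 and 136 CPM in non-responder and 837, 131, 735, 267 and 178 CPM in responder barcodes, highest in Ga and Gc, with a log2 ratio of 2.44 (2.35 to 2.53) in Ga and 2.42 (2.33 to 2.51) in Gc. The next subunit was Eif3b, at 39.9, 39.3, 40.3, 40.5 and 40.3 CPM and 108, 59.5, 102, 53.3 and 44.4 CPM, with 1.43 (1.22 to 1.64) in Ga and 1.34 (1.13 to 1.54) in Gc. Eif3a, Eif3d, Eif3g and Eif3j1 were also past the fold, between 0.88 and 1.22. Eif3e, Eif3i, Eif3k, Eif3l and Eif3m lay between 0.14 and 0.55. Eif3h was at 287, 292, 289.5, 288 and 295 CPM and 268, 309.5, 271, 187 and 222 CPM, and its log2 ratios of -0.10 (-0.21 to 0.02) in Ga and -0.10 (-0.21 to 0.01) in Gc include 0.

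Eif3f, which like Eif3h carries an MPN domain, went the other way. It was at 339.8, 331, 328, 341 and 358 CPM in non-responder barcodes and 204, 321, 216, 240.0 and 222 CPM in responder barcodes. The responder values of Ha and Hb were close to those of Ga and Gc but rest on few UMIs, so they are not ranked. The log2 ratio was -0.74 (-0.87 to -0.61) in Ga and -0.61 (-0.73 to -0.49) in Gc. It stayed below 0 but within the fold in both libraries without thinning (-0.56 in Ga and -0.53 in Gc) and in Cd4 barcodes without Trdc (-0.54 in Ga and -0.40 in Gc), and within it in Gc in barcodes of 6000 to 12000 UMIs (-0.70 in Ga and -0.54 in Gc). Eif3j1 shares sequence with Eif3j2, so UMIs of that pair may be split between them.

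Within eIF4F, which binds the cap and unwinds the mRNA, 3 of 7 measured genes were higher in both libraries and 1 was lower. Of all genes 17.3% were higher and 17.3% lower, and the lower count of 1 of 7 lies near that share. Eif4a1, the helicase, was at 131, 123, 121, 139 and 132 CPM and 465, 83.3, 381, 173 and 111 CPM in non-responder and responder barcodes, with a log2 ratio of 1.83 (1.72 to 1.94) in Ga and 1.65 (1.54 to 1.76) in Gc. Its close paralog Eif4a2 had ratios of -0.11 (-0.28 to 0.05) in Ga and 0.06 (-0.09 to 0.21) in Gc, which include 0, so the ratio of Eif4a1 was higher beyond counting error, as far as reads of the pair were told apart. Eif4e, the cap-binding protein, had ratios of 1.26 (1.09 to 1.44) in Ga and 1.42 (1.25 to 1.58) in Gc. For the scaffold Eif4g1 they were 0.69 in Ga and 0.70 in Gc. Eif4g3, a related scaffold, was at 375, 398, 406, 383 and 359 CPM and 514, 452, 544, 493 and 378 CPM, with ratios under the fold at 0.46 in Ga and 0.42 in Gc. Eif4e2, a cap-binding protein known as a repressor, had 0.45 in Ga and 0.32 in Gc.

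Eif4e3, an alternative cap-binding protein, had the lowest ratio of all measured members. It was at 37.3, 33.7, 38.1, 32.6 and 32.0 CPM in non-responder barcodes and at 12.1, 0, 14.4, 0 and 22.2 CPM in responder barcodes. The responder values of Ga and Gc rest on 34 and 44 UMIs, and the log2 ratio was -1.62 (-2.17 to -1.12) in Ga and -1.40 (-1.88 to -0.96) in Gc. In Cd4 barcodes without Trdc it was -0.73 in Ga and -1.42 in Gc. Within the family of cap-binding proteins, Eif4e was higher, Eif4e2 was under the fold and Eif4e3 was lower in responder barcodes.

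The 2 best-known eIF4E-binding repressors moved in opposite directions. Eif4ebp1 was at 13.9, 10.3, 13.9, 8.46 and 7.72 CPM in non-responder barcodes and at 123, 0, 117, 66.7 and 22.2 CPM in responder barcodes. Its log2 ratio of 3.16 (2.89 to 3.43) in Ga and 3.07 (2.82 to 3.32) in Gc, or 8.91-fold and 8.38-fold, was the highest of the measured members. Its non-responder levels rest on 169 UMIs in Ga and 212 in Gc, and 347 and 357 UMIs came from responder barcodes. At its non-responder rate alone it would have had 208 and 255 UMIs, still above the minimum of 200. In Cd4 barcodes without Trdc the ratio was 2.90 in Ga and 2.80 in Gc, but with 170 UMIs in Ga it was not counted among the members read there. Eif4ebp2 was at 176, 187, 179, 193 and 192 CPM and 102, 167, 100.1, 80.0 and 267 CPM, low in Ga, Gc and Ha, with a log2 ratio of -0.78 (-0.97 to -0.60) in Ga and -0.84 (-1.01 to -0.67) in Gc. In Cd4 barcodes without Trdc the ratio of Eif4ebp2 was -0.55 in Ga and -0.79 in Gc, within the fold in Ga, and without thinning it was -0.64 in Ga and -0.58 in Gc, within the fold in Gc. Summed, the 4 repressor genes had log2 ratios of 0.35 in Ga and 0.23 in Gc. Eif4ebp3 had 0.44 in Ga and 0.21 in Gc. Eif4enif1, which binds eIF4E and carries it into the nucleus, was at 61.2, 65.0, 61.9, 60.9 and 56.5 CPM and 93.6, 35.7, 80.8, 107 and 66.7 CPM, past the fold in Ga at 0.61 and not in Gc at 0.39.

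The cofactors of the eIF4A helicase had low ratios. Eif4h was at 114, 111, 113, 110.0 and 127 CPM and 173, 59.5, 159, 187 and 178 CPM, with 0.60 in Ga and 0.50 in Gc, past the fold in Ga alone. Eif4b was at 133, 137, 136, 139 and 139.5 CPM and 152, 155, 134, 147 and 156 CPM, with 0.19 in Ga and -0.02 in Gc. Eif4g2, or DAP5, a scaffold that does not bind eIF4E, was at 218, 221, 213, 256 and 235 CPM and 332, 262, 328, 347 and 178 CPM. Its ratios of 0.61 in Ga and 0.63 in Gc lie just past the fold (0.58 on this scale), and under 6 alternatives it lost the fold in at least 1 of the libraries. Eif4a3, a helicase of the exon junction complex named with this family, was at 60.6, 49.9, 60.4, 59.1 and 57.8 CPM and 102, 47.6, 101, 93.3 and 156 CPM, with 0.75 in Ga and 0.74 in Gc. It fell within the fold in Cd4 barcodes without Trdc (0.44 in Ga and 0.50 in Gc) and, in Ga alone, in barcodes of 6000 to 12000 UMIs (0.52 in Ga and 0.79 in Gc).

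Late factors differed among themselves. Eif5, which makes eIF2 hydrolyse its GTP, was at 210.1, 209, 205, 228 and 212 CPM and 267, 155, 265, 227 and 200 CPM, under the fold at 0.34 in Ga and 0.37 in Gc. Eif5b, the GTPase that joins the large subunit, was at 137, 129, 153, 134 and 135 CPM and 250.4, 155, 260.1, 213 and 156 CPM, with 0.87 (0.75 to 1.002) in Ga and 0.77 (0.65 to 0.88) in Gc. Eif5a, a hypusine-carrying protein that helps elongation, was at 149.9, 123, 139.6, 134 and 135 CPM and 531, 131, 458, 187 and 178 CPM. Ga and Gc were again the highest, and the log2 ratio was 1.83 (1.73 to 1.93) in Ga and 1.71 (1.62 to 1.81) in Gc. Eif6, which keeps the large subunit apart from the small one, was at 55.0, 52.2, 53.6, 49.3 and 51.8 CPM and 117, 47.6, 122, 147 and 88.9 CPM, with 1.09 (0.89 to 1.28) in Ga and 1.19 (1.01 to 1.37) in Gc. Eif2a, an alternative factor for the initiator tRNA, was at 52.5, 48.4, 54.0, 48.8 and 47.9 CPM and 71.1, 59.5, 70.0, 66.7 and 88.9 CPM, under the fold at 0.44 in Ga and 0.37 in Gc. Eif2d, another such factor, was at 16.8, 17.6, 17.3, 22.4 and 21.2 CPM and 19.6, 35.7, 25.2, 0 and 0 CPM, under the fold at 0.22 in Ga and 0.54 in Gc. Eif5a2 had 11 and 10 responder UMIs in Ga and Gc and its ratio in Gc changed sign between random draws, so no direction is given.

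Promoters are shown for Eif4a1 and Eif5a, 2 members that were higher, and for Eif3f, 1 that was lower, since all 3 hold the E-box CACGTG, a motif that Myc and related factors are known to bind. They were chosen for that motif after the sequences were read, among members past the fold whose upstream bases overlap no annotated exon. The sequences are the 250 bases before the start in RefSeq's table (build GRCm38.p6), 5′ to 3′ on the gene's strand, with the E-box in capitals. They are chr11:69672424-69672673 on the minus strand, chr11:69921387-69921636 on the minus strand, which lies within the longer span of Eif5a in GENCODE, and chr7:108934165-108934414 on the plus strand. The motif begins 189, 74 and 68 bases before the start.
Eif4a1: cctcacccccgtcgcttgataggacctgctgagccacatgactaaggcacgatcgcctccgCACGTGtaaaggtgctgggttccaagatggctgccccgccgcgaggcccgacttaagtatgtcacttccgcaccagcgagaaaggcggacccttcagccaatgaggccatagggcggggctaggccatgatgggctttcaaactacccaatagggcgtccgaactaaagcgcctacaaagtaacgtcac
Eif5a: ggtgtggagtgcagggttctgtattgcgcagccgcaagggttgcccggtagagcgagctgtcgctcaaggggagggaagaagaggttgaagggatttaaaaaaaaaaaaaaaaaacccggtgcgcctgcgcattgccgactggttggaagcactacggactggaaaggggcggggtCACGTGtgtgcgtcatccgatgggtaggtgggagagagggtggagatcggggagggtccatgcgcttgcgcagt
Eif3f: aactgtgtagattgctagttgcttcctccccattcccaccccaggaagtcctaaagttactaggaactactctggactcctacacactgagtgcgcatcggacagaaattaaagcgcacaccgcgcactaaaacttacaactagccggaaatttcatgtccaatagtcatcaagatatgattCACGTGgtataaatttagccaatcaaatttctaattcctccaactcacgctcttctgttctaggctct
Promoter windows of 300 bases, 250 before to 50 after a start, were found for 40 of the 52 members. The palindrome CACGTG, which reads alike on both strands, was in a window of 10 of them (25%), beside 2187 of 27025 genes (8.09%). It was in 5 of 18 members higher in both libraries, in 1 of 2 lower and in 3 of 16 that were neither. The other motif searched, TGATGNAAT on both strands, a form of the composite element of Atf4, was in 0 of 40 members, beside 1.08% of genes. A match is a run of letters and not a binding site, and some members have several windows.

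The summed level was higher with more Irf4 and Nr4a1 UMIs in a barcode, while single members differed. With 0, 1, 2 and 3 or more such UMIs, the summed level was 5622, 7822, 10322 and 12083 CPM in Ga and 5489.9, 7309.9, 10085 and 11748 CPM in Gc. Eif2s2 was at 199, 473, 713 and 1040.2 CPM in Ga and 203, 472, 826 and 1086 CPM in Gc, and Eif3c at 154, 489, 760.3 and 1017 CPM and 137, 401, 789 and 933 CPM. Both genes were higher at each step in both libraries. Eif4a1 was at 131, 240.1, 372 and 590.4 CPM and 121, 202, 338 and 505 CPM, and Eif5a at 149.9, 328, 526 and 628 CPM and 139.6, 278, 485 and 565 CPM, likewise higher at each step, though the intervals of Eif5a overlapped at 2 and at 3 or more UMIs. Eif4ebp1 was at 13.9, 77.9, 140.5 and 141 CPM and 13.9, 50.7, 169 and 145 CPM, with overlapping intervals at 2 and at 3 or more UMIs. Eif3f was at 339.8, 240.1, 207 and 186 CPM and 328, 285, 231 and 168 CPM, and Eif4e3 at 37.3, 26.8, 11.0 and 5.41 CPM and 38.1, 27.3, 12.4 and 6.75 CPM, both lower at each step in value. Most neighbouring steps of these genes had overlapping intervals, and the last 2 classes of Eif4e3 hold 4 and 9 UMIs in Ga and 5 and 11 in Gc. Eif4ebp2 was at 176, 140.5, 113 and 81.7 CPM and 179, 116, 124 and 84.1 CPM, not lower at each step in Gc. These 8 genes were picked among those with large ratios. Of the 46 members measured in both libraries, 18 were higher in value at each step in both, beside 10.5% of all genes measured in both. In the same way 2 were lower at each step, beside 10.6%, and 26 did neither. These counts leave the intervals aside. Among the 18, intervals of Eif4a3 and Eif4h overlapped at all 3 steps in both libraries, and those of Eif1, Eif2s2, Eif3c and Eif4a1 at 0. Median depth before thinning also differed along these classes, from 8620 to 11158 UMIs in Ga and from 8423 to 10657 in Gc.

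**Figure D4:**
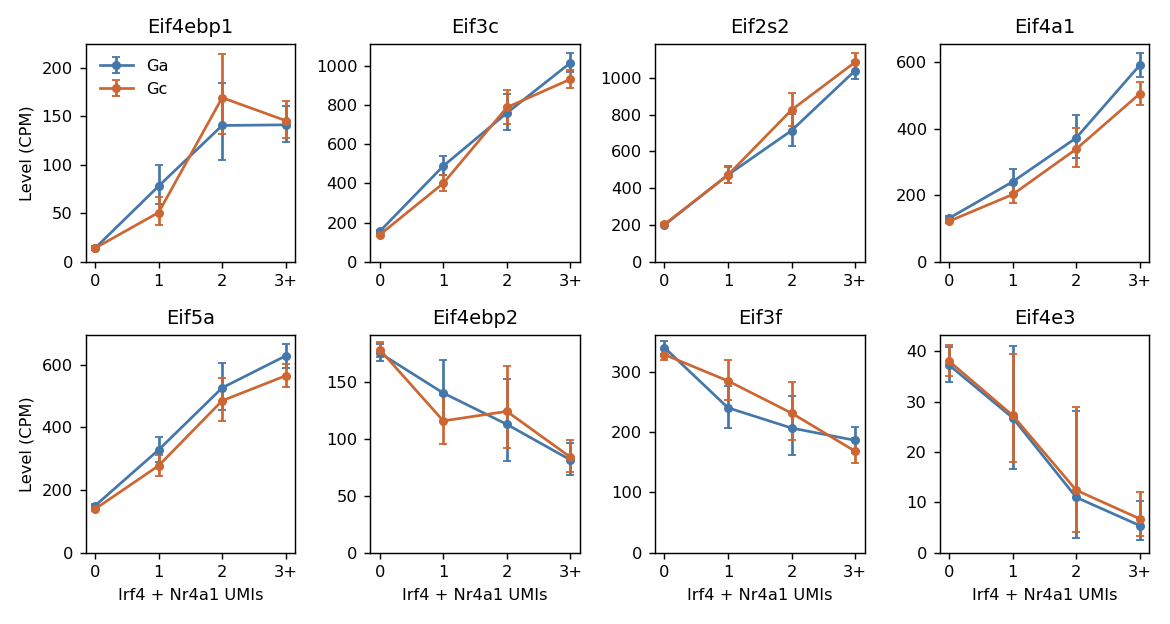
Level of 8 members in CPM (vertical axes, from 0) by the number of Irf4 plus Nr4a1 UMIs in the thinned barcode (horizontal axes) in libraries Ga and Gc; bars are exact 95% Poisson intervals for counting error. The values of Eif3c, Eif2s2, Eif4a1 and Eif5a are higher at each step and those of Eif3f and Eif4e3 lower, with bars that overlap between most neighbouring steps of Eif3f and Eif4e3.

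Barcodes with Irf4 alone and with Nr4a1 alone could be set against each other. In Ga 383 barcodes held only Irf4, 168 only Nr4a1 and 386 both. In Gc they were 431, 215 and 373. Barcodes with both had the highest summed level, 12656 CPM in Ga and 12206 CPM in Gc. By definition they held at least 2 UMIs of these genes. The barcodes with 1 such UMI, 261 in Ga and 342 in Gc, all held a single gene. The classes compared here were not matched for the number of these UMIs. The summed level with Irf4 alone or Nr4a1 alone was 9718 against 8269.8 CPM in Ga, a log2 difference of 0.23 (0.18 to 0.28), and 9051 against 8264 CPM in Gc, a log2 difference of 0.13 (0.08 to 0.18). Eif4ebp1 was at 138 against 71.4 CPM in Ga, a log2 difference of 0.94 (0.42 to 1.51), and at 119 against 51.2 CPM in Gc, a log2 difference of 1.22 (0.67 to 1.81). For Eif3c the values were 795 against 438 CPM in Ga, a log2 difference of 0.86 (0.64 to 1.08), and 659 against 459 CPM in Gc, a log2 difference of 0.52 (0.33 to 0.72). Eif5a was at 490.0 against 279.8 CPM in Ga, a log2 difference of 0.81 (0.54 to 1.09), and at 421 against 305 CPM in Gc, a log2 difference of 0.46 (0.22 to 0.70). Eif4a1, in contrast, was at 338 against 359 CPM in Ga, a log2 difference of -0.09 (-0.35 to 0.17), and at 278 against 305 CPM in Gc, a log2 difference of -0.13 (-0.39 to 0.12), intervals that include 0. These genes were picked after their values were seen. Median depth before thinning was 10531 UMIs with Irf4 alone and 9254 with Nr4a1 alone in Ga, and 10142 and 9050 in Gc.

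Across whole libraries the differences were smaller. Over all thinned T cell barcodes the summed level was 6567, 5417, 6251, 5557 and 5558 CPM. From the lowest to the highest library, 9 of 45 members with at least 1000 UMIs over the 5 libraries, or 20%, differed by 1.5-fold or more, beside 8.90% of 7255 genes. They were Eif4ebp1, Eif3c, Eif2s2, Eif2b3, Eif5a, Eif4a1, Eif1ax, Eif1a and Eif1ad, and each was highest in Ga. Eif4ebp1 reached 1000 UMIs only through its responder barcodes, with 1365 UMIs against 738 at its non-responder rates, so its place among the 9 is no support. Its range was the widest of the 9, at 34.4, 10.2, 31.1, 8.83 and 7.77 CPM. Eif3c was at 282, 119.6, 238, 142 and 136 CPM and Eif2s2 at 319, 176, 311, 153 and 169 CPM, with Ga and Gc above the other libraries in each case. Among non-responder barcodes alone, 0 of 44 such members differed by 1.5-fold, beside 3.30% of 6906 genes. Eif4ebp1 had fewer than 1000 UMIs there and was not among the 44. Its non-responder levels of 7.72 to 13.9 CPM still differed 1.81-fold, with Ga and Gc highest. Some non-responder barcodes, however, held Irf4 or Nr4a1 UMIs that thinning removed. The share with such UMIs was 25.2%, 2.21%, 22.5%, 2.05% and 1.30% before thinning, against 18.7%, 0.962%, 16.7%, 0.636% and 0.402% after it. The part of these barcodes in the difference was not tested.

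**Figure D5:**
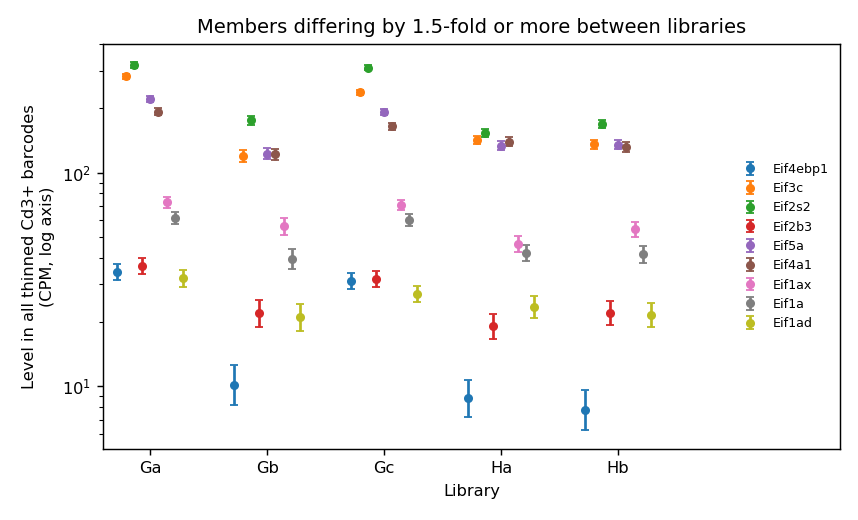
Level in CPM (vertical axis, log scale) over all thinned T cell barcodes of each library (horizontal axis) for the 9 members that differed by 1.5-fold or more between libraries; bars are exact 95% Poisson intervals for counting error, and points are offset sideways for legibility. Ga and Gc lie above Gb, Ha and Hb for these genes, most widely for Eif4ebp1, at 34.4 and 31.1 CPM against 7.77 to 10.2 CPM.

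Other genes of the pathway were read in the same way, in 8 lists of 44 genes. Of 41 measured in both libraries, 19 were at least 1.5-fold higher in responder barcodes of both, beside 17.3% of the 7691 genes measured in both, and 4 were lower, beside 17.3%. Each list had 2 to 10 measured genes, so the count of a single list is a description only, and 1 of 7 lies near these shares. Of the eIF2 kinases, 0 of 4 were higher and 2 were lower: Eif2ak2, or PKR, went from 26.1 to 12.5 CPM in Ga and 26.3 to 15.7 CPM in Gc, and Eif2ak3, or PERK, from 113 to 56.9 CPM in Ga and 132 to 59.2 CPM in Gc. Genes of the integrated stress response, which follows eIF2 phosphorylation, were higher in 5 of 5 measured cases. Atf4, its transcription factor, went from 69.3 to 214 CPM in Ga and 65.9 to 215 CPM in Gc, and Ddit3, or CHOP, from 29.5 to 175 CPM in Ga and 26.5 to 143 CPM in Gc. Trib3 went from 14.3 to 81.5 CPM in Ga and 13.7 to 63.8 CPM in Gc, with 174 and 209 UMIs in non-responder barcodes, while Asns and Chac1 had too few UMIs.

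Among 10 measured genes of mTOR and eIF4E regulation, 4 were higher and 1 was lower. Rheb, the activator of mTOR complex 1, went from 102 to 255 CPM in Ga and 102 to 235 CPM in Gc, and Larp1, which represses mRNAs of the translation machinery, from 139.7 to 306 CPM in Ga and 152 to 307 CPM in Gc. Rptor and Rps6 were just past the fold. Pdcd4, an inhibitor of the eIF4A helicase, went from 528 to 173 CPM in Ga and 519 to 194 CPM in Gc, opposite to Eif4a1. All 3 termination and recycling genes, Etf1, Gspt1 and Abce1, were higher, as were 2 of 5 genes of poly(A) binding, Pabpc1 and Pabpc4. Of 7 genes listed under elongation, 1 was higher and 1 was lower in both libraries. They were Eef1e1, which carries the name of this family, and Eef2k, the kinase that inhibits eEF2. Eef1g was higher by 1.56-fold in Ga and by 1.499-fold in Gc, just under the fold. Eef1b2 went from 732 to 1049 CPM in Ga and 703 to 940.1 CPM in Gc, and Eef2 from 752 to 532 CPM in Ga and 757 to 538 CPM in Gc, both under the fold. Eef1a1, the main elongation factor, was at 3849 and 3875 CPM in Ga and 3769 and 3894 CPM in Gc. Of the enzymes that make hypusine on eIF5A, Dohh was higher and Dhps was under the fold. Of 5 further initiation proteins Denr, Ddx3x and Abcf1 were higher in both libraries, and Mcts1, the partner of Denr, was under the fold.

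All 52 members were placed by their gene identifier in GENCODE M21 (build GRCm38, the same assembly as mm10), on 19 chromosomes. Among members past the fold, Eif4ebp1 lay at chr8:27260329-27276674, Eif4e3 at chr6:99625135-99666771 and Eif4ebp2 at chr10:61428491-61452661. Eif3c lay at chr7:126546455-126566411 and Eif3f at chr7:108934417-108942951. Eif4a1 at chr11:69666936-69672423 and Eif5a at chr11:69916714-69921958, both higher in responder barcodes, lay close to each other. No member had an exon that overlapped one of another counted gene on the same strand. An opposite-strand overlap was found for 11 members: Eif1ad, Eif1b, Eif2a, Eif2b4, Eif2d, Eif3d, Eif3j1, Eif3m, Eif4a2, Eif5b and Eif6. The sources used here do not give whether counting used the strand or introns, so UMIs of these 11 genes may include some of the gene opposite.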

How the data were processed

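The authors deposited 2 matrices, each aggregated over several libraries, of UMI counts as whole numbers. Cell Ranger 6.0.0 and build mm10 are named per the submitters' processing notes, and cellranger 7.1.0 per the file headers. The sources used here do not give whether aggregation equalised depth or whether introns were counted. No source maps barcode suffixes to samples, so the 5 libraries stayed unassigned and no test across samples was run; p-values are not given, because each group has 1 sample and cells are not replicates.

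T cell barcodes were thinned without replacement to 3000 UMIs with a fixed seed, and Irf4 and Nr4a1 UMIs were counted in the thinned barcode. UMIs were then summed per library and class. Intervals are exact and at 95%: Poisson for levels, Clopper-Pearson for shares and binomial for ratios. Doublets were not called with a tool: an alternative left out the highest 6% of barcodes by UMIs and those with other cells' markers. Values for every library are given for the 2 most abundant members of each complex and the 10 with the largest median ratio, and other members are described by their ratios or ranges. The exceptions are Eif5a2 and Eif2c5, which have too few UMIs, and the genes set apart by Irf4 or Nr4a1 alone were chosen after their values were seen. The members, lists and tests were chosen with earlier results of these data known. The ratio was checked on simulated counts. Python 3.11.15, numpy 2.4.6, pandas 2.3.3, scipy 1.17.1 and matplotlib 3.10.9 were used.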

Additional observations from a re-analysis of the deposited data

How the results depend on the processing

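The summed ratio of responder to non-responder barcodes stayed above 1.5-fold in Ga and Gc under every alternative run. Its log2 values in Ga and Gc were 0.86 and 0.83 when thinned to 5000 UMIs, 0.84 and 0.79 without thinning, and 1.07 and 1.06 with at least 2 UMIs asked of responders. They were 0.72 and 0.67 in Cd4 barcodes without Trdc, 0.82 and 0.80 in barcodes of 6000 to 12000 UMIs, and 0.97 and 0.92 without the highest 6% of barcodes and other cells' markers. Without Eif1 they were 0.86 and 0.81, and thinned to 1500 UMIs Gc was at 0.91. In another random draw Ga was at 0.9006, just below its counting interval of 0.9046 to 0.9438. The other random draw and the omission of Eif1 were chosen after seeing the data. In the libraries with few responder barcodes the ratio moved further: Gb to 0.48 without thinning, 0.35 with at least 2 UMIs and -0.058 without the highest 6% and other cells' markers, Ha to 0.21 when thinned to 5000 UMIs, and Hb to 0.37 with at least 2 UMIs. The cause was not tested.

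Among genes with at least 1000 UMIs, where fewer genes were read, 16 of 28 members were higher by the fold in Ga, against 25 of 46. Members lower by the fold were 1 of 42 in Ga in Cd4 barcodes without Trdc, against 3 of 46. Without thinning they were 1 of 48 in Gc, against 3 of 47. Shares of all genes are not given for these alternatives. Of 580 values of single members under the alternatives, 449 moved by less than the counting interval, 128 moved further and 3 changed sign. Those 3 were Eif5a2 in Gc, at 0.27 when thinned to 1500 UMIs, 0.15 when thinned to 5000 and 0.20 in another random draw, against -0.67. The 580 values belong to 58 results of single members, which do not cover all members. Of these results 41 were past the fold, and under the alternatives 37 values lost the fold and 8 gained it. For complexes, 178 of 260 values moved by less than the interval and 0 changed sign. Of 26 complex results 18 were past the fold, and 21 values lost it and 8 gained it. No paired analysis was possible because each group has 1 sample and the barcode suffixes carry no sample. Depth limits the responder values of Gb, Ha and Hb, where 1 UMI is 11.9 to 22.2 CPM.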
